A study of Mus musculus with 24 samples.

Results

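The proteasome subunit genes described here are the protein-coding mouse genes whose symbols begin with Psma, Psmb, Psmc, Psmd, Psme, Psmf or Psmg followed by a digit, which gave 50 of the 54446 genes in the deposited count table. By role they comprised 7 genes of the alpha ring, 7 of the constitutive beta ring, 6 ATPases and 11 non-ATPase subunits of the regulatory particle, the inducible set of 5 (Psmb8, Psmb9, Psmb10, Psme1 and Psme2), 4 other activator or inhibitor genes, 7 assembly chaperones, 2 tissue-specific core subunits and 1 gene, Psmc3ip, that is no subunit. The first 4 of these classes, 31 genes, are called constitutive subunits below. Another 4 pseudogenes are named after members and were not counted. The labels describe CD4+ T cells from spleens of C57BL6 mice, WT or Aim2-/-, the latter lacking Aim2, a cytosolic DNA sensor. Cells of 3 mice labelled WT (mice 1, 3 and 4) and 3 labelled Aim2-/- (mice 1, 2 and 4) were kept unstimulated (0 h) or stimulated with anti-CD3 and anti-CD28 antibodies, which stand in for antigen and costimulation, for 3, 6 or 24 h. This gave 24 stranded mRNA libraries in 8 groups of 3, 1 library for each mouse and time. The cells are a bulk population enriched from the spleen, the labels do not say which part of Aim2 is deleted, and no cell-restricted deletion is named, so an effect inside the T cells and one of the animal cannot be told apart.

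The proteasome is the protease that degrades ubiquitin-tagged proteins. Its core particle is a barrel of outer alpha and inner beta rings, in which Psmb5, Psmb6 and Psmb7 encode the catalytic subunits, and the regulatory particle that caps it recognises, unfolds and feeds in the substrates. Interferon induces Psmb8, Psmb9 and Psmb10, which take the place of Psmb5, Psmb6 and Psmb7 in newly built particles called immunoproteasomes, and Psme1 and Psme2, which form an alternative activator cap. Lymphocytes carry immunoproteasomes already at rest, and a dividing T cell builds much new protein.

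Promoter sequences are shown because members that rose together can be set side by side at their starts. RefSeq windows of assembly GRCm38.p6, from 250 bases before to 50 bases after each start, were found for 42 of the 50 members among 32851 windows. Of 13 motifs searched on both strands, whose matches may overlap one another, 6 are described. TGACNNNGC, the core of the antioxidant response element bound by the proteasome gene activator NRF1 (gene Nfe2l1) and its relatives, lay in the windows of 6 members (14.3%; 12.4% of all windows), Psmb5 and Psmb6 among them. In the stretches below the motif is in capitals and the sequences run 5′ to 3′ on the strand of the gene.
Psmb5: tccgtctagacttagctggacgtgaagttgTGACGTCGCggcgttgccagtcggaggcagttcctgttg
Psmb6: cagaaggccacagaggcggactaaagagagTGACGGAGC
The first lies at chr14:54618004-54618072 on the minus strand, with the motif 47 bases before the start, and the second at chr11:70525318-70525356 on the plus strand, with the motif 9 bases before it. The interferon-type motif, 2 copies of GAAA with 2 bases between them, was in the windows of 5 members (11.9%; 3.44% of all windows), of which Psme1 was the one inducible gene, and the motif TTCNNNGAA, the form bound by STAT factors, in 3 (7.14%; 8.3% of all windows), of which Psmb8 was the one inducible gene. They are printed to show how the inducible genes differ in these windows.
Psme1: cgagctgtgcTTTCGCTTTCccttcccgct
Psmb8: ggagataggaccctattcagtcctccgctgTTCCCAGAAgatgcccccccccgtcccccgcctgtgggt
Psmb9: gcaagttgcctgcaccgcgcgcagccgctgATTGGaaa
The Psme1 stretch (chr14:55578493-55578522, plus strand) holds the interferon-type motif on the reverse strand, beginning 9 bases after the start. The Psmb8 stretch (chr17:34198068-34198136, plus strand) holds the STAT-type motif 97 bases before the start. The Psmb9 window holds neither, and the stretch shown (chr17:34187331-34187368, minus strand) has a CCAAT box, read on the reverse strand, 8 bases before the start. The starts meant here are those of RefSeq. The windows of these Psme1, Psmb8 and Psmb9 stretches lie inside the genes as annotated for the counts, past the annotated starts. They therefore do not cover the sequence before the annotated starts. The NF-kB form, GGGA and TTTCC with 1 base between them, was in no member's window and in 0.411% of all windows. CCAAT itself lay in 15 members (35.7%; 37.4% of all windows). The ETS-type motif CCGGAAG lay in 15 members (35.7%; 8.86% of all windows), shown here for Psmg1, the chaperone with the largest rise at 24 h, and for Psmd2, a scaffold subunit of the regulatory particle.
Psmg1: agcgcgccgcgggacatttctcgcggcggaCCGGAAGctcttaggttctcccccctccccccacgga
Psmd2: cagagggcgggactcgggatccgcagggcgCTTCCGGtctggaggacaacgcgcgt
These lie at chr16:95990993-95991059 on the minus strand and chr16:20651596-20651651 on the plus strand, with the motif 69 bases and, on the reverse strand, 26 bases before the start. A match is a description of letters and not a bound site, and the absence of one says only that these letters are not in the window.

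Library totals ranged from 19715161 to 21627018 counts, and CPM is the count scaled to the library total times its TMM factor, so that 3 counts, taken as the floor, corresponded to 0.129 to 0.155 CPM. The summed level of 6 T cell markers, Cd4 and Cd3e among them, was 3043 to 4431 CPM in all libraries. Apart from Cd4, these markers are also carried by CD8 T cells. Cd4 alone was at 407 to 1046 CPM, against 7.74 to 15.6 CPM for the sum of 2 CD8 markers. The targeted gene went against 1 label: Aim2 at 0 h was at 21.5 CPM in the mouse labelled WT 1. The other mice labelled WT had 75.0 and 67.5 CPM, while mice labelled Aim2-/- had 15.7, 20.1 and 19.001 CPM. Counts of calls, medians and shares of WT cells are therefore also given without the mouse labelled WT 1, as are the calls of named genes that end without it. Summed myeloid markers went from 25.8 to 46.8 CPM at 0 h to 8.89 to 19.6 CPM at 24 h in WT and from 93.3 to 318 to 21.8 to 146 CPM in Aim2-/- libraries, and their part in the results below was not tested.

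Nearly all proteasome genes were higher after stimulation, by small steps at first and by 2.65-fold at the median in WT at 24 h. Fits were made with edgeR's quasi-likelihood test over all 15325 genes that passed the filter on low counts, and a gene is called when its Benjamini-Hochberg adjusted p is under 0.05. Of the 50 members 49 were tested. In WT cells 31 members were called higher and 2 lower at 3 h, where 16.2% of all genes tested were called higher and 16.4% lower. At 6 h 43 members were higher and 0 lower (background 26.4% higher and 24.8% lower), and at 24 h 46 were higher and 1 lower (background 36.6% and 34.8%). From 3 to 6 h 35 members were higher and 0 lower in WT (background 14.2% higher). The median log2 fold change of the members from 0 h to 3, 6 and 24 h was 0.34, 0.81 and 1.40, while that of all genes tested was 0.02, 0.02 and -0.01. Without the mouse labelled WT 1 the members' medians were 0.30, 0.79 and 1.39, and 33 members were higher from 3 to 6 h. CPM is a share of the library, so a change in mRNA per cell is not seen, and in a bulk sample fewer cells of a type and less RNA per cell cannot be told apart.

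The Aim2-/- cells ran a similar course. At 3 h 19 members were higher and 1 lower (background 16.1% higher and 14.6% lower), at 6 h 42 and 1 (background 28.5% and 22.7%), from 3 to 6 h 38 and 0 (background 13.4% higher), and at 24 h against 0 h 46 and 1 (background 36.8% and 33.5%). The 0 h comparisons had median log2 changes of 0.24, 0.64 and 1.20 at 3, 6 and 24 h. Over the 6 mice together, 37 of the 49 members were above their own 0 h value in 6 of 6 mice at 3 h, 43 at 6 h and 45 at 24 h. As a share of all counts, the members rose in WT from 0.438% ± 0.00591 (SD, n = 3) at 0 h to 0.608% ± 0.0309 at 3 h, 0.812% ± 0.0177 at 6 h and 1.14% ± 0.0101 at 24 h. Without the mouse labelled WT 1 these shares were 0.434%, 0.593%, 0.82% and 1.14%. In Aim2-/- cells the same share went from 0.48% ± 0.024 to 1.14% ± 0.0405. The 3 h counts moved with single mice: without the mouse labelled WT 1 the WT count was 13, without WT 3 it was 12 and without WT 4 it was 22, and the Aim2-/- count was 12 without mouse 2 and 9 without mouse 4. With WT 1 left out, the WT count was 41 at 6 h and 47 at 24 h.

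**Figure D1:**
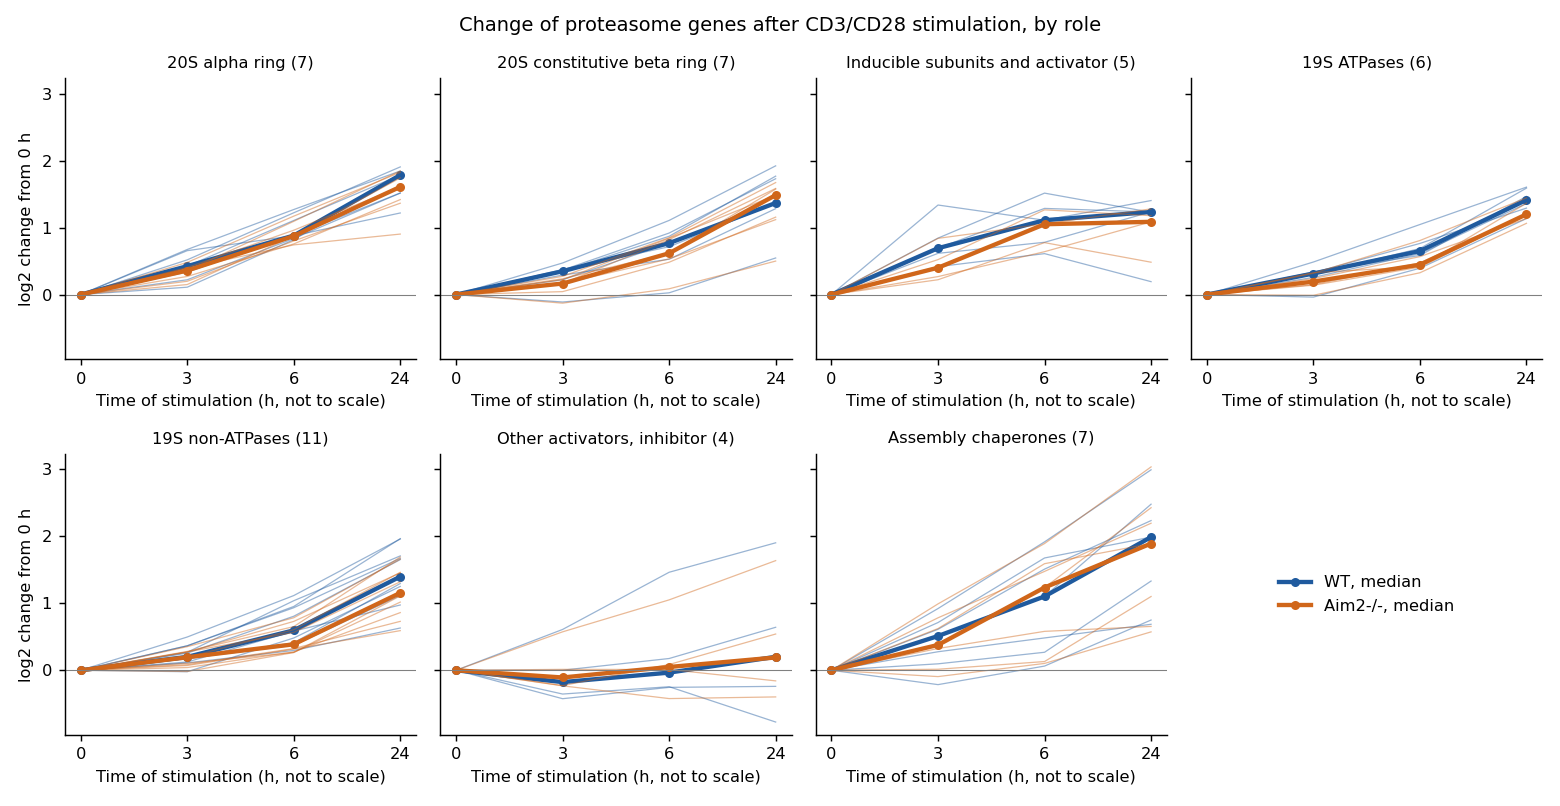
Log2 change from 0 h (y axis) at each time of stimulation (x axis, hours, not to scale) for the genes of each role, with 1 thin line per gene and a thick line for the median in WT (blue) and Aim2-/- (orange). Medians of the constitutive classes and the chaperones rise at every step, while that of the inducible set is near its 24 h level by 6 h.

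The constitutive subunits of the core and regulatory particles rose almost as a body, with the largest step between 6 and 24 h. Of the 31 constitutive subunits 20 were called higher in WT at 3 h, 30 at 6 h and 31 at 24 h, with median log2 changes of 0.30, 0.81 and 1.52. The exception at 6 h was Psmb1, a structural beta subunit, with a log2 change of 0.03 ± 0.084 (adjusted p = 0.825). Leaving out WT 1, the numbers were 6, 30 and 31, with medians of 0.27 and 0.79 at 3 and 6 h. From 6 to 24 h 31 of 31 were higher again in WT, with or without that mouse (median 0.74; background 29.6%) and 30 of 31 in Aim2-/- cells (median 0.73; background 27.4%).

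Among the alpha ring genes, whose products form the gate of the barrel, 7 of 7 were higher at 24 h, with a median log2 change of 1.79. Psma4 rose most. Its level in WT was 72.2, 65.1 and 66.3 CPM at 0 h in mice 1, 3 and 4 and 257, 262 and 245 CPM at 24 h, a log2 change of 1.91 ± 0.12 (adjusted p = 5.93e-12). Psma3 rose least, from 20.4, 21.3 and 21 CPM to 46.6, 49 and 50.6 CPM (1.22 ± 0.089). Neither gene's 24 h libraries overlapped those at 0 h.

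The catalytic subunits differed in how far they went. Psmb5, which carries the chymotrypsin-like site, stood in WT mice 1, 3 and 4 at 17.6, 20.7 and 18.8 CPM at 0 h, 30.5, 26.8 and 21.8 CPM at 3 h, 39.1, 42.4 and 41.4 CPM at 6 h and 71.3, 73.6 and 71.5 CPM at 24 h. In Aim2-/- mice 1, 2 and 4 it stood at 26.1, 20.3 and 21.2 CPM at 0 h and 70.2, 67.7 and 77.8 CPM at 24 h. Each step upward in WT left the groups apart, and the 24 h level was 3.79-fold the 0 h level (log2 1.92 ± 0.11, adjusted p = 2.34e-12). Psmb7, which carries the trypsin-like site, went in WT from 71.1, 64.3 and 69 CPM to 224, 236 and 237 CPM at 24 h (3.41-fold, log2 1.77 ± 0.098). Psmb6, which carries the caspase-like site, went from 109.9, 133 and 125 CPM to 287, 310.3 and 297 CPM (2.43-fold, log2 1.28 ± 0.11). Psmb1 was the smallest riser of the ring, at 188, 190.1 and 187 CPM at 0 h and 271, 277 and 278 CPM at 24 h (log2 0.55 ± 0.084, adjusted p = 5.78e-06).

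In the regulatory particle the 6 ATPases, which unfold the substrate, moved in a narrow band at 24 h in WT, from 1.14 for Psmc6 to 1.61 for Psmc5 on the log2 scale. The 11 non-ATPase subunits spread more widely. Psmd7, a partner of the deubiquitinase Psmd14 in the lid, went from 89.2, 87.8 and 94.3 CPM to 355, 373 and 333 CPM (log2 1.97 ± 0.11, adjusted p = 1.21e-12). Psmd4, a ubiquitin receptor, went from 167, 195 and 196 CPM to 285, 290.3 and 289 CPM (0.63 ± 0.09, adjusted p = 2.15e-06). At 3 h 4 of the 11 non-ATPases were called, against 6 of 7 alpha ring genes and 5 of 6 ATPases, and without the mouse labelled WT 1 the numbers were 2, 3 and 1.

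Assembly chaperones, which put the particles together and leave before they work, held the largest rises at 24 h in WT, apart from Psma8 and Psmc3ip described further on. Psmg1, which with Psmg2 assembles the alpha ring, was at 9.4, 11 and 11.1 CPM at 0 h, 19.8, 22.7 and 17.2 CPM at 3 h, 37.4, 44.3 and 37.5 CPM at 6 h and 84.4, 85.8 and 81.1 CPM at 24 h in WT. The groups were apart at every step, and the 24 h level was 7.97-fold that at 0 h in WT (log2 2.99 ± 0.19, adjusted p = 7.99e-12) and 8.22-fold in Aim2-/- cells. The 24 h rises of Psmg2, Psmg3 and Psmg4 were 2.24, 2.48 and 1.99 on the log2 scale. The chaperones of the regulatory particle moved less. Psmd10, also known as gankyrin, rose by 0.69 ± 0.092 at 24 h, and Psmd5 was called lower at 3 h in WT, from 54.3, 57.1 and 56 CPM to 47.8, 48.7 and 47.8 CPM (log2 -0.21 ± 0.063, adjusted p = 0.0115), before it rose to 94.2, 94.6 and 92.8 CPM at 24 h. The 3 h call of Psmd5 ended in 6 of 14 alternatives, among them the fits without any 1 of the WT mice (adjusted p = 0.0656 without WT 1) and library totals in place of TMM factors (-0.11, adjusted p = 0.169).

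The inducible set rose early, and from 6 to 24 h its median stayed level while single genes moved in both directions. In WT 5 of 5 were called higher at 3 h (median log2 0.69, against 0.30 for the constitutive subunits), 5 of 5 at 6 h (1.11 against 0.81) and 4 of 5 at 24 h (1.23 against 1.52). Without the mouse labelled WT 1 the numbers were 4, 5 and 4 and the medians of the inducible set 0.67, 1.21 and 1.30. From 6 to 24 h 2 of the 5 were higher and 1 lower in WT (median -0.05; 28.0% of all genes lower), or 1 and 1 without the mouse labelled WT 1, and 1 of the 5 was higher and 0 lower in Aim2-/- cells (median 0.02; 27.0% of all genes lower). Their share of the members' counts in WT was 17.1% ± 0.402 (SD, n = 3) before stimulation, 22.7% ± 1.96 after 3 h, 20.6% ± 2.17 after 6 h and 14.6% ± 0.788 after 24 h. With WT 1 left out, it was 17%, 23.1%, 21.6% and 14.9%. In Aim2-/- cells the share was 19% ± 0.431, 21.6% ± 0.585, 23% ± 0.66 and 16.9% ± 1.64.

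Psmb9 (minus strand, chr17:34181987-34187764), the inducible partner of Psmb6, had the largest 3 h change of the 5 in WT. In WT it stood at 114, 115 and 119.8 CPM at 0 h, 268, 279.7 and 335 CPM at 3 h, 210.3, 253 and 291 CPM at 6 h and 306, 296 and 322 CPM at 24 h. In Aim2-/- cells it stood at 137, 138 and 149, then 229, 263 and 266, then 287, 289.9 and 303 and at last 353, 303 and 373 CPM. The 3 h libraries of both genotypes lay clear above their 0 h libraries, while the 3 h libraries of WT overlapped those of 6 h and of 24 h. The log2 change in WT was 1.34 ± 0.11 at 3 h (adjusted p = 1.12e-08), 1.11 ± 0.11 at 6 h and 1.40 ± 0.11 at 24 h, and the step from 6 to 24 h was 0.29 (adjusted p = 0.0219). That step was not called in 5 of 14 alternatives, and without the mouse labelled WT 1 it was 0.18 (adjusted p = 0.215). Tap1, the peptide transporter gene, overlaps Psmb9 on the other strand, and since it is not stated whether counting used the strand, their reads may not be cleanly separated.

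Psmb8 (plus strand, chr17:34197721-34201454), the partner of Psmb5, was above 0 h at each time. Its WT libraries were at 239, 239.7 and 232 CPM at 0 h, 351, 329 and 409.8 CPM at 3 h, 341, 401 and 479 CPM at 6 h and 512, 567 and 595 CPM at 24 h. The log2 change was 0.62 ± 0.11, 0.78 ± 0.11 and 1.24 ± 0.11, the 3 h and 6 h libraries overlapped (step 0.16, adjusted p = 0.293), and Psmb8 was the one inducible gene called higher from 6 to 24 h in both genotypes (0.46 in WT and 0.45 in Aim2-/- cells).

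Psmb10 (minus strand, chr8:105935735-105938444), the partner of Psmb7, was the inducible gene called lower from 6 to 24 h in WT. In WT it was at 99.7, 113 and 96.9 CPM at 0 h, 141, 128 and 144 CPM at 3 h, 131, 159 and 184 CPM at 6 h and 115, 104 and 135 CPM at 24 h. In Aim2-/- cells it was at 132, 117 and 142 CPM at 0 h, 229.6, 199 and 241 CPM at 6 h and 214, 137 and 195 CPM at 24 h. In WT the 24 h libraries overlapped those of 6 h and differed from 0 h by 0.19 ± 0.15 (adjusted p = 0.259), while the fall from 6 to 24 h was called (-0.42 ± 0.15, adjusted p = 0.0221), though not without WT 3 (adjusted p = 0.141) or WT 4 (adjusted p = 0.0615). In Aim2-/- cells the 24 h difference from 0 h was called (0.48 ± 0.15, adjusted p = 0.00727; without mouse 1 adjusted p = 0.106) and the step from 6 to 24 h was -0.29 (adjusted p = 0.105). The genotype difference in the 24 h response of Psmb10 was tested and not called (adjusted p = 0.62).

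The activator pair Psme1 and Psme2 had risen by 6 h and showed no called change from 6 to 24 h in either genotype. Psme1 (plus strand, chr14:55578123-55581529) was in WT at 263, 255 and 253 CPM at 0 h, 546, 666 and 670.0 CPM at 6 h and 549.6, 621 and 643 CPM at 24 h, and its step from 6 to 24 h was -0.05 (adjusted p = 0.697). Psme2 was at 73.7, 72.4 and 69.6 CPM, 179.8, 209 and 227 CPM and 169, 168 and 169 CPM, with a step of -0.29 (adjusted p = 0.0546). The 24 h libraries of Psme2 lay below all 3 of 6 h in WT, though the step missed the threshold. Psme3, which forms the related nuclear activator and is not interferon-induced, was highest at 24 h, and went from 191, 202 and 201 CPM at 0 h to 533, 579 and 528 CPM at 6 h and 771, 749.5 and 704 CPM at 24 h (log2 1.90 ± 0.15, adjusted p = 2.11e-10).

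**Figure D2:**
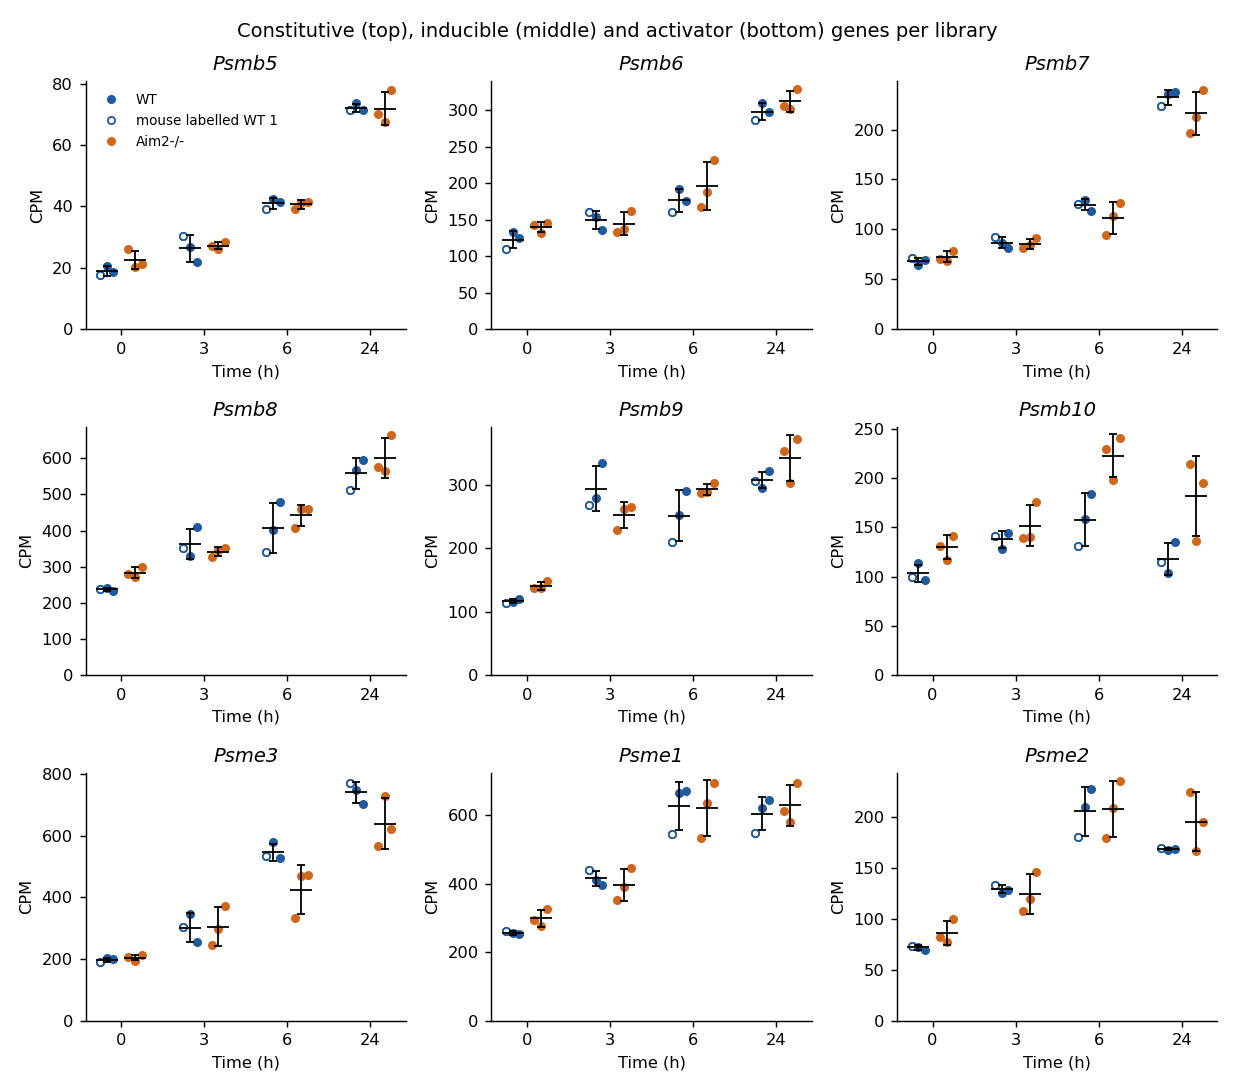
CPM (y axis, from 0) of each library against time (x axis, hours) for the constitutive catalytic genes (top), the inducible catalytic genes (middle) and the activator genes (bottom), with WT in blue, the mouse labelled WT 1 as open circles and Aim2-/- in orange; bars are the mean ± SD of 3 libraries. Psmb5, Psmb6, Psmb7 and Psme3 are highest at 24 h, Psmb9 is already near its later levels at 3 h, and Psmb10 in WT is lower at 24 h than at 6 h at the mean.

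The remaining members went their own ways. Psme4, which encodes the single-chain activator PA200, was the one activator called lower in WT at 3 h, from 129, 113 and 114 CPM to 78.2, 87.3 and 99.5 CPM (log2 -0.42 ± 0.13, adjusted p = 0.0128). Leaving out WT 1, that change was -0.28 (adjusted p = 0.236), and without WT 3 the adjusted p was 0.0818. In Aim2-/- cells Psme4 was called lower at 6 h (-0.42 ± 0.13) and 24 h (-0.40 ± 0.13), and at neither time without mouse 4 (adjusted p = 0.101 and 0.0895). In WT Psme4 was not called at 6 h or 24 h. At both times no mouse of either genotype was above its own 0 h value, so the fall was not particular to Aim2-/- cells. Psme2b, a close copy of Psme2 that may share its reads, was called lower at 24 h in WT, from 16.4, 13.4 and 17.3 CPM to 8.36, 9.56 and 9.65 CPM (log2 -0.77 ± 0.20, adjusted p = 0.00156), and not in Aim2-/- cells (-0.16, adjusted p = 0.483). Among the Aim2-/- mice only mouse 1 was above its 0 h value, and the genotype difference in the 24 h response was not called. Psme2b also overlaps 9930111J21Rik1 and Gm12185 on the same strand. Psmf1, the inhibitor PI31, was the 1 member called lower at 3 h in Aim2-/- cells, a call that ended in 7 of 14 alternatives. In WT Psmf1 rose by 0.64 ± 0.075 at 24 h. The largest rise with appreciable counts belonged to Psmc3ip, a partner of the meiotic recombinases named after the ATPase Psmc3, at 3.65, 5.38 and 3.8 CPM at 0 h, 6.74, 6.23 and 5.65 CPM at 6 h and 38.3, 47.3 and 43.9 CPM at 24 h (10.1-fold). Psmb11, the thymus-specific subunit, had 0 counts in 24 of 24 libraries and was not tested.

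Because each inducible catalytic gene has 1 constitutive counterpart, their ratio within a library needs no scaling between libraries. The mean change of the log2 ratio from a mouse's own 0 h library is given over the 6 mice of both genotypes, with an exact two-sided sign-flip permutation test whose smallest possible p is 0.03125. The Psmb9 to Psmb6 ratio rose by 0.92 ± 0.26 (SD, n = 6) at 3 h in 6 of 6 mice (exact p = 0.03125) and stood 0.58 ± 0.21 above 0 h at 6 h, again in 6 of 6 mice (exact p = 0.03125). By 24 h the excess was 0.12 ± 0.11, upward in 5 of 6 mice (exact p = 0.09375).

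The other 2 ratios ended below their start. Psmb8 to Psmb5 changed by 0.07 ± 0.31 at 3 h with 3 mice up and 3 down (exact p = 0.71875), then fell by 0.28 at 6 h (SD 0.21) and by 0.64 at 24 h (SD 0.18), downward in 6 of 6 mice each time (exact p = 0.03125 for each). Psmb10 to Psmb7 changed by 0.03 ± 0.21 at 3 h and -0.05 ± 0.35 at 6 h, with mice on both sides, and fell by 1.35 (SD 0.40, n = 6) at 24 h in 6 of 6 mice (exact p = 0.03125). With p adjusted over the 9 ratio tests the 5 smallest became 0.05625, so none passed 0.05. The levels by mouse show the same for Psmb10 to Psmb7: the log2 ratio of counts was 0.49, 0.82 and 0.49 at 0 h and -0.96, -1.18 and -0.81 at 24 h in WT, and 0.90, 0.78 and 0.85 and 0.13, -0.64 and -0.29 in Aim2-/- mice. The 24 h values of both genotypes lay below all of their 0 h values. The 3 Aim2-/- mice lay above the 3 WT mice at 6 h and 24 h, a difference in the ratio that was not tested.

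**Figure D3:**
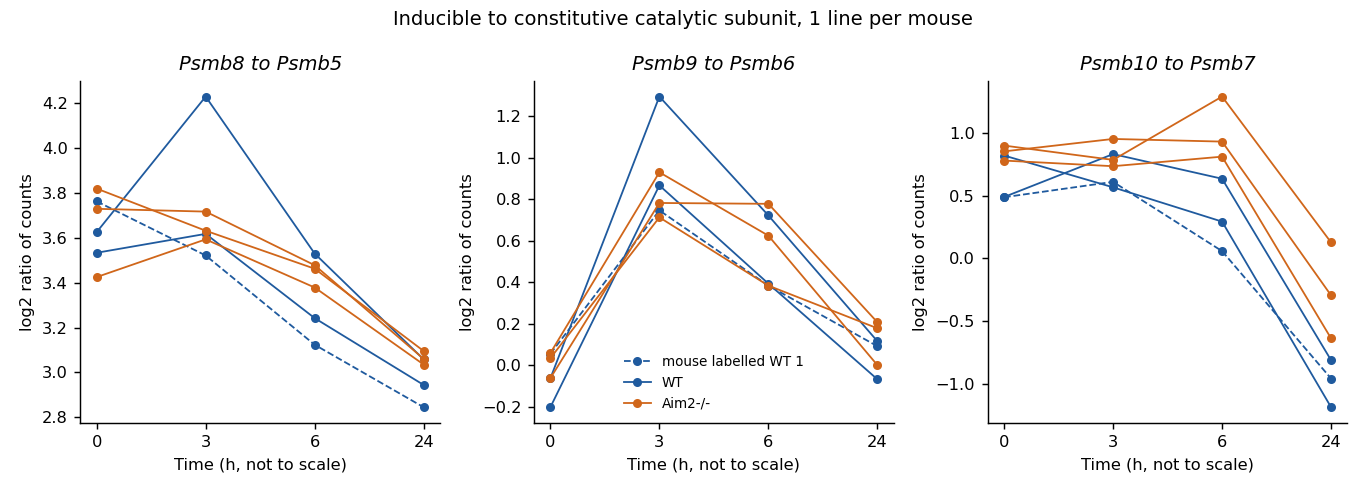
Log2 ratio of the counts of each inducible catalytic gene to its constitutive counterpart (y axis) against time (x axis, hours, not to scale), 1 line per mouse, WT blue, the mouse labelled WT 1 dashed, Aim2-/- orange. The Psmb9 to Psmb6 ratio peaks at 3 h in 6 of 6 mice, and Psmb10 to Psmb7 drops by a mean of 1.35 at 24 h.

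Put per length of annotated exons, the ratios compare levels only roughly. That length joins all transcripts of a gene and so understates genes with long rare forms. It was 3660 bases for Psmb9 and 1872 for Psmb6, and the ratios between genes depend on it. In WT Psmb8 was 3.32 ± 0.268 (SD, n = 3) times Psmb5 at 0 h and 2.06 ± 0.152 times at 24 h. Psmb9 was 0.489 ± 0.0434 times Psmb6 at 0 h, 1.02 ± 0.211 times at 3 h and 0.529 ± 0.0359 times at 24 h. Psmb10 went from 3.06 ± 0.419 times Psmb7 at 0 h to 1.02 ± 0.131 times at 24 h. Without the mouse labelled WT 1 the 0 h and 24 h ratios were 3.18 and 2.13 for Psmb8, 0.467 and 0.521 for Psmb9 and 3.18 and 1.01 for Psmb10. On this per-length scale (CPM per kilobase) constitutive subunits ranged at 0 h in WT from 5.38 ± 0.124 for Psma3 to 86.9 ± 2.09 for Psmc5, and the inducible set from 31.8 ± 0.815 for Psmb9 to 116 ± 2.39 for Psme1, the highest of all members at rest.

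Between genotypes the proteasome genes differed little. At 0 h 1 member, Psma8, was called (background 5.23%), at 3 h 0 (background 0.294%), at 6 h 4 (background 15.8%) and at 24 h 0 (background 0.666%). With WT 1 left out, the numbers were 0, 0, 1 and 0. Psma8, among the calls at 0 h and 6 h, passed the filter only through Aim2-/- libraries. The unadjusted p was under 0.05 for 2 members at 3 h and for 8 at 24 h, where DESeq2 called 0 and 4 and limma-voom 0 and 0. The interaction of genotype and response called 0 members at 3, 6 and 24 h (background 0.0%, 0.0261% and 0.0%), with an unadjusted p under 0.05 for 5, 6 and 8. DESeq2 and limma-voom also called 0 at each. With the 4 libraries of a mouse summed, 0 of 49 members were called (background 0.0117% of 17163 genes) and 6 had an unadjusted p under 0.05, while DESeq2 called 3 and limma-voom 0. For the unadjusted p, DESeq2 and limma-voom the share of all genes is not given here. Those counts therefore cannot be read as a result about the members.

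The 6 h calls were of modest size. Psmd1, a scaffold subunit of the regulatory particle, was at 201, 179 and 167 CPM in WT and 112, 151 and 122 CPM in Aim2-/- mice, a log2 difference of -0.51 ± 0.13 (Aim2-/- against WT, adjusted p = 0.0193). Psme4 was at 107, 92.7 and 98.1 CPM and 73.6, 82.1 and 68.8 CPM (-0.41 ± 0.13, adjusted p = 0.0372). Psmb10 was higher in Aim2-/- mice, at the 6 h levels given above (0.50 ± 0.15, adjusted p = 0.0333). In all 3 genes the groups did not overlap, but without the mouse labelled WT 1 none of them was called: Psmd1 was then at -0.44 ± 0.16 (adjusted p = 0.0762), Psme4 at -0.35 ± 0.14 (adjusted p = 0.109) and Psmb10 at 0.38 ± 0.17 (adjusted p = 0.148). With the mouse as a block in limma-voom, 6 members were called at 6 h and 0 at 0 h. Psmd11 and Psmd6 were added to the main calls, and limma-voom without the block also called Psmd6. In an edgeR fit with a term for each mouse, the 6 h interaction of Psmd1 was called (-0.49 ± 0.14, adjusted p = 0.0492, and 0.28 without the block). At 24 h Psmb10 stood at 0.62 ± 0.15, just short of the threshold (adjusted p = 0.0552). Psma8, the testis-specific alpha subunit, was called at 0 h (adjusted p = 0.0289) and 6 h (adjusted p = 0.0205) on very few reads, with 0, 0 and 1 counts in WT and 5, 5 and 14 in Aim2-/- mice at 0 h and 5, 2 and 0 against 10, 11 and 26 at 6 h. No WT library held over 9 counts, below the filter's minimum of 10, so Psma8 was tested only because of Aim2-/- libraries. Its calls are therefore no support for a genotype difference. Leaving out WT 1, Psma8 was not called at 0 h (adjusted p = 0.0687) and was the 1 member called at 6 h, and both calls ended without WT 3 (adjusted p = 0.166 and 0.107), WT 4 or Aim2-/- mouse 1 or 4.

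In 14 of the 49 the 3 Aim2-/- libraries lay above the 3 WT libraries at 0 h, where 14.1% of all genes did so, and in 1, Psme4, they lay below (14.4% of all genes). The 14 held all 5 inducible genes, with log2 differences from 0.22 for Psme1 to 0.33 for Psmb10, none of which passed the threshold. At 3 h 1 lay above and 2 below (7.8% and 7.31% of all genes), at 6 h 4 and 10 (18.6% and 17.0%) and at 24 h 4 and 8 (11.1% and 10.2%). Without the mouse labelled WT 1, 16 lay above and 1 below at 0 h, where 21.9% of all genes lay above and 22.9% below. Summed markers of several other cell types, which also carry proteasome and immunoproteasome genes, were higher in the unstimulated Aim2-/- libraries. The summed level of 5 B cell markers at 0 h was 3.19 to 4.6 CPM in WT and 10.1 to 34.2 CPM in Aim2-/- libraries, that of 5 myeloid markers 25.8 to 46.8 and 93.3 to 318 CPM, that of 4 dendritic cell markers 13 to 19.2 and 23.6 to 60.4 CPM, and that of 3 mast cell and basophil markers 3.3 to 4.9 and 23 to 43.7 CPM. The genotypes overlapped in the sum of 4 erythroid markers, at 6.64 to 63.3 and 18.4 to 300.2 CPM with a log2 difference above 0 for 4 of 4, and in that of 3 NK cell markers, at 33.7 to 46.6 and 38.3 to 67.5 CPM. At 6 h the B cell sums were 3.51 to 6.87 and 11.3 to 38.1 CPM, the myeloid sums 15.1 to 37.3 and 46.8 to 175 CPM and the erythroid sums 6.82 to 54.9 and 19.9 to 427 CPM. The mast cell and basophil sums at 6 h were 4.04 to 8.11 and 34.2 to 75.8 CPM, with 3 of 3 markers called higher. The B cell, myeloid, dendritic, erythroid, mast cell and basophil, and NK cell sums at 0 h were highest in Aim2-/- mouse 1. In that library Lyz2 alone was at 244 CPM of the myeloid sum and Zbtb46 at 41.0 CPM of the dendritic sum. Of the defining markers named here Ms4a1 was at 0 in 2 libraries, Pax5 and Siglech in 3, Cd14 in 2 and S100a8 in 1. Of the lists 2 of 5 B cell, 2 of 5 myeloid, 1 of 4 dendritic and 3 of 3 mast cell and basophil markers were called higher at 0 h, and 0 of 4 erythroid and 0 of 3 NK cell markers. Their part in the genotype differences was not tested.

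**Figure D4:**
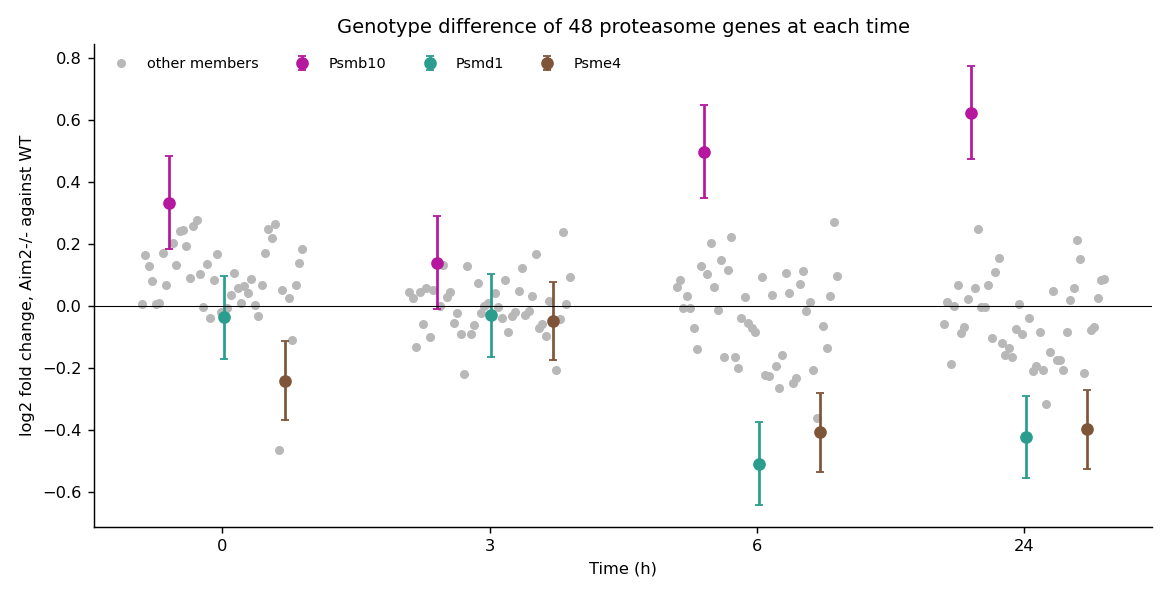
Log2 fold change of Aim2-/- against WT (y axis) at each time (x axis, hours) for 48 tested members, leaving out Psma8 with its few reads; grey points are single genes without error bars, and Psmb10, Psmd1 and Psme4 carry their standard errors. At 6 h and 24 h Psmb10 is the highest point, Psmd1 the lowest and Psme4 the next lowest.

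The genes around the proteasome were followed from lists written for the pathway. Of 16 other subunits and cofactors, 2 were higher and 4 lower at 3 h in WT (16.2% and 16.4% of all genes), 8 and 4 at 6 h (26.4% and 24.8% of all genes), and 11 and 3 at 24 h (36.6% and 34.8% of all genes). With WT 1 left out, the numbers were 2 and 3, 9 and 1, and 9 and 2. Pomp, the maturation factor of the core particle, rose at each time, by 0.80 ± 0.17, 1.79 ± 0.18 and 2.33 ± 0.18 on the log2 scale. The deubiquitinases of the regulatory particle, Uchl5 and Usp14, were 2.52 ± 0.12 and 1.34 ± 0.13 higher at 24 h, while the ubiquitin receptor Adrm1 differed by 0.26 ± 0.11 (adjusted p = 0.0293), a call that ended in 6 of 14 alternatives (adjusted p = 0.129 without the mouse labelled WT 1). Of 10 genes that regulate proteasome genes, 2 were higher and 1 lower at 3 h, 5 and 4 at 6 h, and 3 and 4 at 24 h, against the same shares of all genes, and without the mouse labelled WT 1 the numbers were 2 and 1, 4 and 3, and 3 and 4. At 3 h and 24 h these counts lay near the background. Nfe2l1, the transcription factor of the proteasome recovery response, was in WT at 174, 169 and 193 CPM at 0 h, 227, 215 and 206 CPM at 6 h and 179, 187 and 169 CPM at 24 h. It was called higher at 6 h (0.27 ± 0.098, adjusted p = 0.0249), though not in 6 of 14 alternatives (adjusted p = 0.205 without the mouse labelled WT 1), and differed from 0 h by -0.00 ± 0.098 at 24 h (adjusted p = 0.976). Ddi2, the protease that activates it, was lower throughout, at -1.02 ± 0.10, -1.01 ± 0.10 and -1.13 ± 0.10. Bach1, a repressor at antioxidant response elements, fell by 2.08 (SE 0.14) at 24 h.

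Genes of the interferon axis and of peptide supply to class I molecules rose early, and most of them were lower again from 6 to 24 h. Of 10, 9 were called higher at 3 h in WT (16.2% of all genes), 10 at 6 h (26.4%), and at 24 h 4 were higher and 2 lower, where 36.6% and 34.8% of all genes were. Leaving out WT 1, the numbers were 8, 10, and 4 and 2. From 6 to 24 h 1 was higher and 7 were lower (29.6% and 28.0% of all genes), with a median of -0.85. Irf1, an activator of immunoproteasome genes, was at 1.81 ± 0.15, 1.05 ± 0.14 and 0.06 ± 0.14 (log2 change from 0 h). Tap1, the neighbour of Psmb9, was at 1.02 ± 0.099, 0.46 ± 0.098 and 0.08 ± 0.098, so that Psmb9 was still 2.65-fold above 0 h when Tap1 was not called different from it (adjusted p = 0.475). Ifng itself stayed up, at 1.80 ± 0.46, 2.76 ± 0.46 and 2.78 ± 0.46, though its 3 h change was not called without the mouse labelled WT 1 (1.57, adjusted p = 0.0648).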

How the data were processed

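Splenic CD4+ T cells were isolated by negative selection, and stranded mRNA libraries were sequenced from 1 end, as the study's general methods describe. Reads were mapped with STAR to mouse genome GRCm38, and the authors deposited raw counts per gene, without normalization, for 54446 Ensembl genes in 24 libraries. Whether counting used the strand is not stated in the sources used here. A GENCODE annotation of the same build matched 54409 genes and gave symbols, positions and exon lengths.

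Members and lists were chosen with earlier results of these data known. The main fit was edgeR 4.0.16 (R 4.3.3), a two-sided quasi-likelihood test with a mean for each of the 8 groups over the 24 libraries, TMM factors, filterByExpr (minimum count 10; 15325 genes tested) and Benjamini-Hochberg adjustment within a comparison; the common dispersion was 0.0346. CPM used TMM-scaled totals with no prior count; the check of pairing used log2 CPM with a prior count of 2. Log2 fold changes are given with standard errors. Ratios within a library had 0.5 added to each count. The test was checked on simulated counts, drawn independently for each library with known changes in WT at 24 h. These had no mouse effect, so the check does not cover the correlation between libraries of a mouse. Comparisons within a genotype share their 0 h libraries, and those between genotypes share libraries with them.

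Alternatives were DESeq2 1.42.0, limma-voom (limma 3.58.1), other size factors and filters, only the libraries compared, a mouse block and leaving out each mouse. Between genotypes the block was a correlation within a mouse in limma-voom, and elsewhere a term for each mouse in edgeR. The labels number the mice, and the 4 libraries of a number deviated from their group means together (r 0.139 to 0.567 over 36 pairs of libraries of the same mouse, against -0.432 to 0.0742 over 72 pairs of different mice). Named are the inducible genes and their counterparts, the extremes of each role at 24 h in WT, members lower or not called at 24 h, members called between genotypes, and the untested member.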

Additional observations from a re-analysis of the deposited data

How the results depend on the processing

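With any 1 mouse left out, the change of the log2 ratio of Psmb10 to Psmb7 at 24 h ranged from -1.46 to -1.22. That of Psmb8 to Psmb5 at 24 h ranged from -0.69 to -0.59, and that of Psmb9 to Psmb6 at 3 h from 0.83 to 0.97. In each of these all 6 mice had moved the same way, so leaving 1 out could not reverse the direction. Leaving out 1 mouse at a time, the number of members called ranged from 12 to 34 in WT at 3 h, 9 to 20 in Aim2-/- at 3 h, 22 to 36 in WT from 3 to 6 h, 21 to 34 in Aim2-/- from 3 to 6 h, and between genotypes from 0 to 3 at 0 h, 0 to 8 at 6 h, 0 to 6 at 24 h and 0 to 5 for the sums over each mouse. The 6 h genotype count of 4 was 1 without the mouse labelled WT 1, 0 without WT 3, WT 4, Aim2-/- 1 or Aim2-/- 4, and 8 without Aim2-/- 2. Counts at 24 h against 0 h stayed between 46 and 48 under every setting run.

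Among the other settings, the Aim2-/- 3 h count of 20 became 34 with library totals in place of TMM factors and 11 with only the libraries compared in the fit, and the Aim2-/- count of 38 from 3 to 6 h became 22 with no filter and 10 with only the libraries compared. Between genotypes, the 0 h count of 1 became 0 with a mean of at least 1 CPM, DESeq2 (which gave Psma8 no adjusted p), only the libraries compared or the replicate block; the 6 h count of 4 became 1 with only the libraries compared; the 24 h count of 0 became 1 with library totals, 3 with no filter, 1 with a mean of at least 1 CPM and 4 with DESeq2; and the summed count of 0 became 1 with no filter and 3 with DESeq2. With the replicate block the 6 h interaction count became 1, and the block changed no other count by over 1.5 times; it was not run for the summed comparison. The cause of these shifts was not tested. Of 250 alternative counts 36 moved by over 1.5 times, and 81 of 81 ratio values moved by less than their spread. Leaving out 1 of 6 mice cannot move a mean by its SD, so for those ratio values this was fixed beforehand. Of 2250 alternative values of single genes 38 newly passed the threshold, 50 no longer passed it and 0 changed sign while called. Library totals shifted the median log2 change of all genes by 0.107 in WT at 3 h and by 0.116 and 0.120 in Aim2-/- at 3 and 6 h, so rises of that size are within the choice of scaling. At this depth 3 counts set the floor, which limits Psma8 and Psmb11.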
